A study of Homo sapiens with 36 samples.

Results

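Gene expression with 2 CRISPR guides was compared in WiDr cells. Of the 36 RNA sequencing libraries of the study, 6 were compared, 3 from WiDr cells expressing guide 2 and 3 from WiDr cells expressing guide 1. The libraries were chosen by their titles, and the comparison covers all genes with enough reads. WiDr is an established human colorectal adenocarcinoma line. Both guides are CRISPR guide RNAs directed at the same gene. A further 3 libraries of WiDr cells with a non-target guide entered the fit and give the level of the control. All cells were grown in DMEM with fetal bovine serum, and poly-A RNA was sequenced. The remaining libraries of the study, from hairpin experiments in WiDr, MDA-MB-468 (breast) and PANC-1 (pancreas), were not compared here. Whether a guide's cells were 1 clone or a pool, how long after the guide's introduction RNA was taken, and which sequences the guides had could not be read from the files or labels.

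The labels disagree on which library carries which guide. For 4 of the 6 libraries the genotype field names the other guide than the title: 1 library titled guide 1, replicate 3, and all 3 libraries titled guide 2. Titles were used throughout, so "guide 1" and "guide 2" below mean the libraries titled that way. The expression data fell into the arms given by the titles. The first 2 principal components held 31.8% and 23.2% of the variance of log2 expression and placed the 3 libraries of each titled arm next to each other. Grouping by the genotype field sets 1 library, titled guide 1, against the other 5 and so puts all 3 libraries titled guide 2 in the other arm. Its fold changes and its number of calls (0 of 15268 genes in edgeR, 269 with an unadjusted p under 0.05) follow from that arrangement and do not bear on which label is right. Every direction below rests on the titles. Which physical guide each title stands for cannot be told apart from these files.

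Several gene programmes come up repeatedly in the results. Interferons bind cell surface receptors whose JAK kinases phosphorylate STAT factors, among them STAT2; with IRF9 these switch on genes that carry an interferon-stimulated response element, among them antiviral effectors and the class I antigen presentation genes. The unfolded protein response is switched on when folding capacity of the endoplasmic reticulum is exceeded, and it raises chaperones such as HSPA5 through the factors ATF6, XBP1 and ATF4. The E2F factors control the genes of DNA replication as cells enter S phase. In the intestinal epithelium, Wnt signalling maintains dividing crypt cells, and KRT20 and KLF4 mark cells that have stopped dividing and differentiate.

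Promoter sequences are shown for 4 genes that moved with their group, 1 each for the interferon, class I, unfolded protein response and DNA replication lists. Some list members were first left out by their chromosome. Among the rest, the gene shown has the largest change of those with a single start site in the RefSeq promoter table. Each sequence is the 250 bases before the start site (build GRCh38.p14), written 5′ to 3′ on the gene's own strand in lower case. They belong to IFI44L (chr1:78620198-78620447, plus strand), PSMB9 (chr6:32853942-32854191, plus strand), DNAJB9 (chr7:108569624-108569873, plus strand) and GINS2 (chr16:85688955-85689204, minus strand).
IFI44L: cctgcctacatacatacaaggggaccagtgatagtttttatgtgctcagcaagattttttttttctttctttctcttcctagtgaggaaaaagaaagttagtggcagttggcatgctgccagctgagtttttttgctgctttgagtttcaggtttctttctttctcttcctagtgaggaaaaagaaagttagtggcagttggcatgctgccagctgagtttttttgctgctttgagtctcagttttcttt
PSMB9: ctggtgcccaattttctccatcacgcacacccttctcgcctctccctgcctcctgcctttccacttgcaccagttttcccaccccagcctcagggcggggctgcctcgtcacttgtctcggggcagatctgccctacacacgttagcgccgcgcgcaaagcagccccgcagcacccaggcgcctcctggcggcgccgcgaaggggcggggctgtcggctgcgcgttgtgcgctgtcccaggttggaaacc
DNAJB9: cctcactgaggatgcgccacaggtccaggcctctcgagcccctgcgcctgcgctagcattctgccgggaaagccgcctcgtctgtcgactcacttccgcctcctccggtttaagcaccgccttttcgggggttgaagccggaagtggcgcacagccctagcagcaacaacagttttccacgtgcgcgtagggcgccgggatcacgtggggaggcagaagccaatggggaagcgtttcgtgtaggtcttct
GINS2: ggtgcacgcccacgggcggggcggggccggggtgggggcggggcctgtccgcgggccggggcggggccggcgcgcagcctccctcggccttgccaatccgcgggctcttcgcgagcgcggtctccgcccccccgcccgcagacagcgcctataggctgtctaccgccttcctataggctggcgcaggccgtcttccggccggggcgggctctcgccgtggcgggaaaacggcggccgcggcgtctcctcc

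The 4 promoters differ in base composition. That of IFI44L had 40.4% G or C and 0 CpG dinucleotides, and that of GINS2 had 79.2% and 38. PSMB9 and DNAJB9 lay between them, with 21 and 22 CpG. Of the genes tested, 10640 had a promoter in the table, and the median over the first start site of each was 64.8% G or C. The median was 52% over 31 interferon-stimulated genes, 61.6% over 17 class I genes, 67.4% over 20 genes of the unfolded protein response and 68% over 27 DNA replication genes. Some members were left out of the 4 lists by their chromosome, which was not done for the median over all genes. All these values describe the reference sequence, and binding to it was not measured.

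Library totals ran from 30596375 to 44673650 expected counts with guide 1, from 32560208 to 36096925 with guide 2 and from 29737169 to 32760225 in the control. The share of counts on ribosomal RNA genes was 5.03% to 8.08% with guide 1 and 3.78% to 10.0% with guide 2, so the arms overlapped. Of the 4 ribosomal RNA genes tested, 0 passed with edgeR, limma-voom or DESeq2, and 0 had an unadjusted p under 0.05 in edgeR. Of 13 colorectal epithelium markers, 12 were high enough to test and 2 were under 1 CPM in all 9 libraries. EPCAM was at 464 to 567 CPM and LGALS4 at 291 to 494 CPM over the 9 libraries. CDX2 was at 1.16 to 2.15 CPM and CDH17 under 1 CPM in all of them. Of 9 leukocyte, 7 endothelial and 9 fibroblast markers, 3, 1 and 2 were high enough to test. The defining markers were at or near 0, with PTPRC and COL1A2 at most at 0.0632 CPM and CD3E at most at 0.034 CPM. The 3 leukocyte markers tested, LYZ, CD14 and ITGAM, were higher with guide 2, with LYZ (also a product of Paneth cells) at 1409, 1532 and 1521 CPM with guide 1, 1970, 2147 and 2081 with guide 2 and 2018, 2001 and 1924 in the control. The endothelial marker TEK was also higher with guide 2, at 12.1 to 13.0 CPM against 7.48 to 8.61 with guide 1. Of 10 markers of the breast and pancreatic lines of the series, 5 were under 1 CPM in all 9 libraries. Of the 5 tested, GABRP and KRT17 were higher and ZEB1 lower with guide 2, and the call of ZEB1 was lost without guide 1 replicate 1 or 2 or without guide 2 replicate 1 or 3. The summed level of the 9 leukocyte markers was 1412 to 1536 CPM with guide 1, 1976 to 2152 with guide 2 and 1930 to 2023 in the control. Nearly all of this sum was LYZ, so it adds little beyond that gene. The part of such cells in any result was not tested.

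Levels below are TMM-scaled read counts relative to library size (CPM), listed for replicates 1 to 3 of an arm. Fold changes are log2 values of guide 2 minus guide 1 with their standard error (SE), over 3 libraries per arm. A gene passed at a Benjamini-Hochberg adjusted p under 0.05 in edgeR's quasi-likelihood test over all 14649 genes tested. The p-values measure spread between libraries that the submitters call biological replicates. In bulk RNA, fewer cells of a type and less RNA per cell cannot be told apart. The 2 comparisons with the non-target guide share its 3 libraries with each other and share the guide libraries with the main comparison, so their values are given side by side as levels and not as separate evidence.

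Expression differed widely between the guides. Of 14649 genes, 5040 passed (34.4%), 2542 higher with guide 2 (17.4%) and 2498 lower (17.1%). Most differences were small: the median size among passing genes was 0.34 on the log2 scale, and 380 genes (2.59%) differed by over 2-fold, 160 higher (1.09%) and 220 lower (1.5%). Scaling by library totals without TMM gave 2972 genes higher and 1813 lower, so the balance of directions depended on the scaling. The median log2 fold change over all genes was 0.0081. Against the non-target guide, 6100 genes (41.6%) passed with guide 1 and 3731 (25.5%) with guide 2. Counts of list members below are to be read against these shares. The 49 lists were chosen with earlier results of these data known. A count above these shares therefore describes a list and is not a separate test of it.

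**Figure D1:**
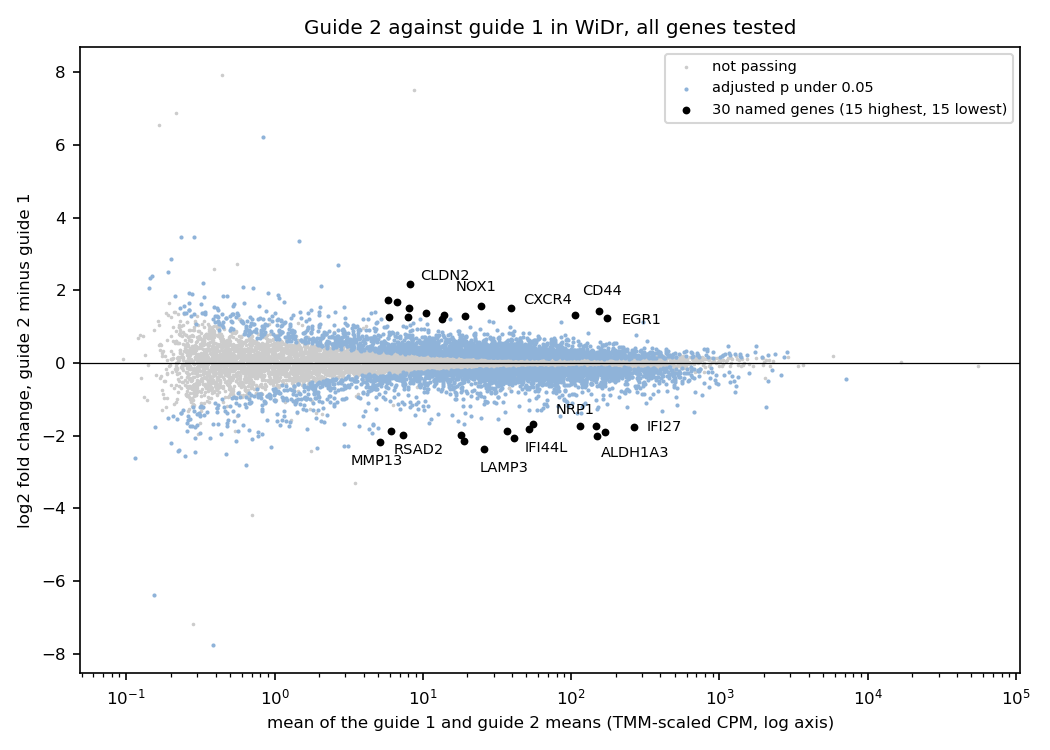
Log2 fold change of guide 2 minus guide 1 (vertical) against mean level in TMM-scaled CPM (horizontal, log axis) for the 14649 genes tested. Blue points passed at an adjusted p under 0.05; black points are the 15 largest rises and 15 largest falls among well expressed genes, with CLDN2 the highest at 2.17 and LAMP3 the lowest at -2.37.

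The interferon-stimulated genes were lower with guide 2 throughout. All 41 listed genes passed as lower (background 17.1%), 28 of them by over 2-fold, and in all 41 the 3 libraries of the arms did not overlap (background for lower 21.6%). Their median log2 fold change was -1.18. RSAD2, the antiviral radical enzyme viperin, was at 22.6, 23.3 and 20.9 CPM with the non-target guide, 31.5, 32.5 and 28.9 with guide 1 and 7.17, 7.73 and 5.97 with guide 2. Its log2 fold change was -2.16 ± 0.09 (edgeR adjusted p = 1.62e-11). IFI44L, an interferon-induced gene, was at 74.2, 75.1 and 68.6 CPM with the non-target guide, 64.4, 67.3 and 68.6 with guide 1 and 15.8, 17 and 15.1 with guide 2. It differed by -2.06 ± 0.06 (edgeR adjusted p = 7.39e-13), and guide 1 lay beside the control while guide 2 lay apart from both. MX2, a dynamin-like GTPase that blocks viral entry into the nucleus, was at 67.5, 68.8 and 71.6 CPM with the non-target guide, 80.5, 81.9 and 80.7 with guide 1 and 24, 21.6 and 23.8 with guide 2 (-1.81 ± 0.06, edgeR adjusted p = 8.34e-13).

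The same direction was seen at each step of the pathway. Among the factors that carry the signal, STAT2 was at 46.4, 47.3 and 46 CPM with guide 1, 36.5, 35.4 and 36.3 with guide 2 and 50.5, 54.1 and 51.4 in the control, with a log2 fold change of -0.37 ± 0.05 (edgeR adjusted p = 4.48e-05). IRF9, its partner, differed by -0.55 ± 0.06 and passed as well. IRF7, the factor that amplifies interferon production, differed by -0.81 ± 0.07. The RNA sensors IFIH1 (MDA5) and DDX58 (RIG-I) differed by -1.19 ± 0.05 and -0.98 ± 0.06. Among effectors, ISG15, a ubiquitin-like modifier, was at 193, 221 and 220.5 CPM with guide 1, 81.3, 79.8 and 100 with guide 2 and 162, 159 and 161 in the control (-1.28 ± 0.08, edgeR adjusted p = 2.20e-08). USP18, which removes ISG15 and dampens receptor signalling, differed by -1.06 ± 0.07, so a negative regulator of the pathway was lower as well. IFIT1, which binds viral RNA ends, and OAS1, which makes the activator of RNase L, differed by -1.01 ± 0.05 and -1.18 ± 0.05. The OAS, IFIT and IFITM genes have close relatives, and reads could be divided among them.

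Other members near the top were SAMD9L (-1.99 ± 0.16), XAF1 (-1.88 ± 0.07), IFI27 (-1.76 ± 0.09) and IFI6 (-1.74 ± 0.09), of which IFI27 and IFI6 were abundant, at 374 to 446 and 202 to 248 CPM with guide 1. IFI16, a DNA sensor outside the list, was at 39.3, 41.1 and 38.4 CPM with the non-target guide, 28.4, 28.6 and 29.8 with guide 1 and 7.85, 7.1 and 7.2 with guide 2 (-1.97 ± 0.07, edgeR adjusted p = 3.24e-12). For IFI16 guide 1 was already below the control, and guide 2 was far below both.

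Against the control the 2 arms stood differently. With guide 1, 14 of the 41 genes passed as higher than the non-target guide and 10 as lower (background 21.4% and 20.3%), with a median of 0.05. With guide 2, 0 passed as higher and 40 as lower (background 14.1% and 11.3%), with a median of -1.10. The summed level of the 41 genes was 5250 to 5274 CPM with the non-target guide, 5430 to 5473 with guide 1 and 2442 to 2505 with guide 2. By library, 41, 41 and 40 of the 41 genes lay below the control mean in guide 2 replicates 1, 2 and 3, against 18, 19 and 18 in the guide 1 libraries.

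**Figure D2:**
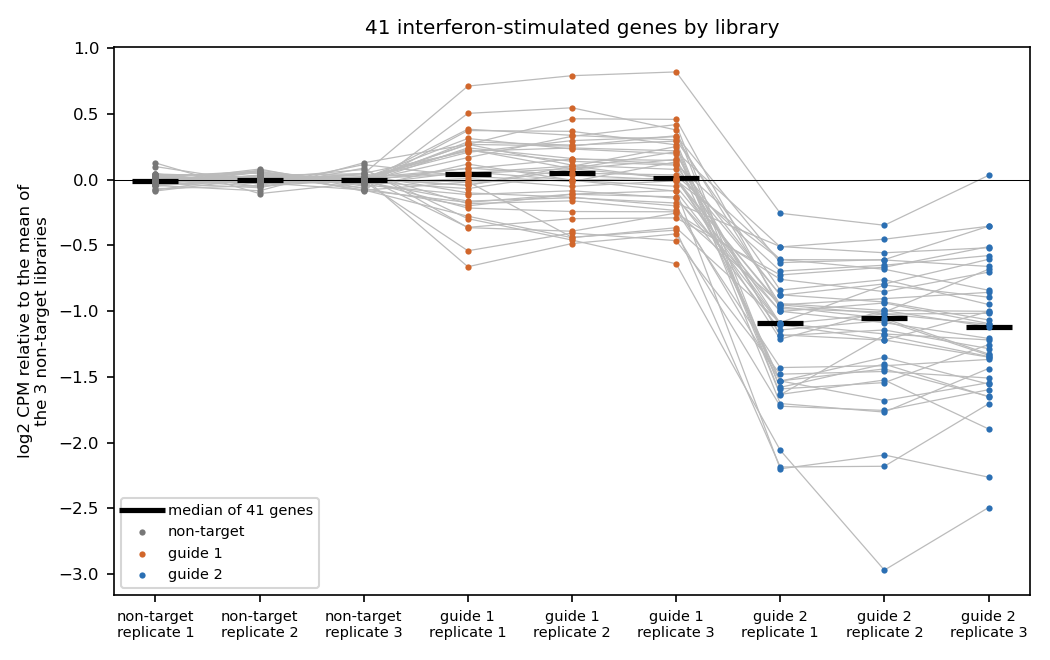
Each grey line is 1 of 41 interferon-stimulated genes across the 9 libraries (horizontal); the vertical axis is log2 CPM relative to the mean of the 3 non-target libraries, and black bars are medians. Medians were 0.01 to 0.05 in the guide 1 libraries and -1.12 to -1.06 in the guide 2 libraries.

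Class I antigen presentation genes, which load peptides onto HLA molecules for display to T cells, were lower with guide 2 in all 21 cases (background 17.1%), with a median of -0.61 and 6 of them by over 2-fold. NLRC5, the transactivator of class I genes, was at 8.68, 9.45 and 11.2 CPM with the non-target guide, 10.4, 8.55 and 9.64 with guide 1 and 2.57, 2.14 and 3.06 with guide 2 (-1.87 ± 0.14, edgeR adjusted p = 2.12e-08). PSMB9, a catalytic subunit of the immunoproteasome, was at 4.07, 4.93 and 4.18 CPM with the non-target guide, 7.14, 6.38 and 8 with guide 1 and 1.83, 2.02 and 1.84 with guide 2 (-1.92 ± 0.13, edgeR adjusted p = 1.09e-08). TAP1, a chain of the peptide transporter, was at 23.5, 24.3 and 21.7 CPM with the non-target guide, 32.9, 29.5 and 30.7 with guide 1 and 10.4, 11.5 and 11.9 with guide 2 (-1.46 ± 0.07, edgeR adjusted p = 2.45e-10). The 3 genes shared an order in which guide 2 lay below the control with no overlap, while for NLRC5 the guide 1 libraries overlapped the control.

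The class I heavy chains differed between the guides by unequal amounts. HLA-B was at 56.2, 60.3 and 61.6 CPM with the non-target guide, 82.7, 82.7 and 86.7 with guide 1 and 23.3, 27.5 and 27.4 with guide 2 (-1.69 ± 0.07, edgeR adjusted p = 9.28e-12). HLA-C differed by -1.14 ± 0.06. Reads of the HLA genes may be divided among these near-identical genes, so their split is uncertain. B2M, the shared light chain, was at 621, 687 and 678 CPM with guide 1, 471, 519 and 501 with guide 2 and 576, 565 and 537 in the control and differed by -0.41 ± 0.05. Over the whole list, guide 1 had 19 genes passing above the control and 0 below (background 21.4% and 20.3%), with a median of 0.42. With guide 2, 0 passed above and 11 below (background 14.1% and 11.3%), with a median of -0.18. The list also holds CALR, CANX and PDIA3, chaperones of the endoplasmic reticulum.

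Of 24 tested chemokine, cytokine and NF-kB target genes, 12 were lower with guide 2 and 1 was higher (median -0.31, background 17.1% and 17.4%). BIRC3, an apoptosis inhibitor induced by NF-kB, was at 12.3, 11.7 and 11.2 CPM with the non-target guide, 22, 20.7 and 21.6 with guide 1 and 12.2, 11.9 and 12 with guide 2 (-0.83 ± 0.07, edgeR adjusted p = 1.25e-07). IL32, a cytokine at low level, differed by -1.25 ± 0.22 and was at 2.55, 3.57 and 2.9 CPM with guide 1, 1.21, 1.03 and 1.57 with guide 2 and 1.23, 1.96 and 1.21 in the control. For both genes guide 1 stood above the control and guide 2 overlapped it.

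Genes of the unfolded protein response were lower with guide 2 than with guide 1 in 19 of 20 cases (background 17.1%), with a median of -0.60. HSPA5, the main chaperone of the endoplasmic reticulum (BiP), was at 788, 791 and 826 CPM with the non-target guide, 1615, 1623 and 1581 with guide 1 and 889, 948 and 925 with guide 2. The difference was -0.8 ± 0.05 (edgeR adjusted p = 1.35e-09). DNAJB9, a cochaperone of HSPA5, was at 31.8, 32 and 30.6 CPM with the non-target guide, 74.9, 80.5 and 75.1 with guide 1 and 38.1, 42.4 and 37.6 with guide 2 (-0.97 ± 0.06, edgeR adjusted p = 2.24e-09). DNAJC3 and HYOU1, which inhibit the kinase PERK and assist HSPA5, differed by -0.8 ± 0.05 and -0.79 ± 0.05. In each of these 4 genes the guide 1 libraries stood apart, and guide 2 lay nearer to the control.

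DDIT3 (CHOP), the factor tied to prolonged stress, was at 28.1, 27.4 and 27.5 CPM with the non-target guide, 58.3, 66.6 and 61.1 with guide 1 and 33.7, 41.7 and 41.7 with guide 2 (-0.67 ± 0.08, edgeR adjusted p = 3.24e-06). XBP1 was the member that did not pass, at 651, 683 and 652 CPM with guide 1, 579, 640.4 and 596 with guide 2 and 491, 500.1 and 501 in the control (-0.13 ± 0.05, edgeR adjusted p = 0.0503). XBP1 is activated by splicing, which gene-level counts do not show. XBP1 passed in 8 of the alternative settings, including DESeq2, where its adjusted p was 0.0215. Against the control, guide 1 had 20 of 20 genes higher (median 0.81; background 21.4%) and guide 2 had 9 of 20 higher and 0 lower (median 0.16; background 14.1%).

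Among 26 ATF4 targets, which supply amino acids under stress, 15 were lower and 2 higher with guide 2 (median -0.22, background 17.1% and 17.4%). SLC38A2 and SLC3A2, amino acid transporter genes, differed by -0.5 ± 0.06 and -0.43 ± 0.06, and the lipoprotein receptor VLDLR by -0.46 ± 0.07. NUPR1, a stress-induced chromatin protein, went the other way, at 4.08, 4.82 and 5.71 CPM with guide 1, 8.97, 9.27 and 11.4 with guide 2 and 5.6, 5.5 and 3.98 in the control (1.01 ± 0.14, edgeR adjusted p = 5.31e-05). Among 26 NRF2 and glutathione genes, which defend against oxidants, 14 were lower and 3 higher (median -0.21, same background). TXNRD1, thioredoxin reductase, was at 646, 661 and 652 CPM with the non-target guide, 956, 923 and 930.4 with guide 1 and 658, 647 and 609 with guide 2 (-0.55 ± 0.05, edgeR adjusted p = 1.15e-07). OSGIN1 differed by -0.55 ± 0.08. AKR1C1 and AKR1C2 differed by -0.67 ± 0.05 and -0.65 ± 0.06, and these 2 genes are close relatives whose reads can be divided between them.

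**Figure D3:**
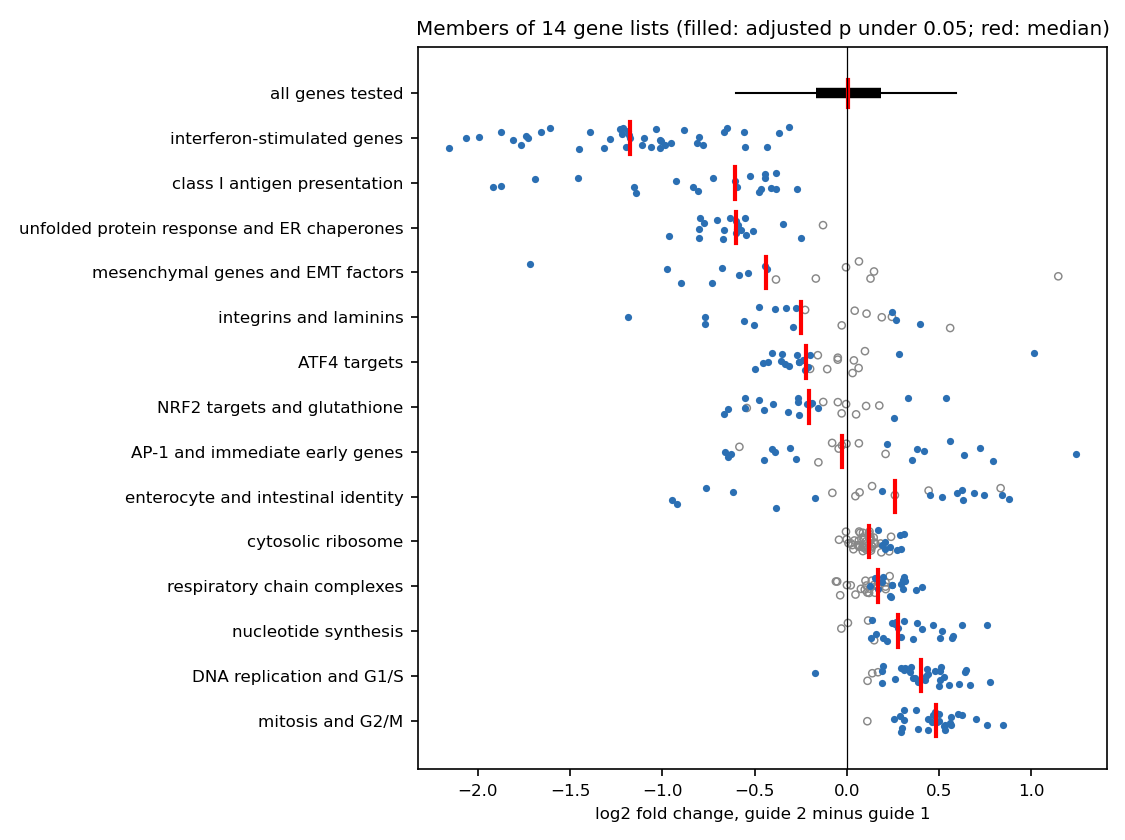
Log2 fold changes of guide 2 minus guide 1 (horizontal) for the tested members of 14 gene lists (rows). Filled points passed, open points did not, red bars are list medians, and the top row gives the middle 50% (thick) and 90% (thin) of all genes tested. All 41 interferon-stimulated genes lie to the left of 0, and the 28 mitosis genes to its right.

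Cell division genes were higher with guide 2 than with guide 1. Of 28 mitosis genes, 27 passed as higher and 0 as lower (background 17.4% higher), with a median of 0.48. KIF20A, a mitotic kinesin, was at 16.4, 17.1 and 15.3 CPM with the non-target guide, 9.32, 8.8 and 10.7 with guide 1 and 17.2, 16.6 and 17.8 with guide 2 (0.85 ± 0.08, edgeR adjusted p = 7.78e-07). TOP2A, the topoisomerase that untangles chromosomes, was at 341, 349.8 and 343 CPM with the non-target guide, 216, 198 and 194 with guide 1 and 364, 355 and 309 with guide 2 (0.76 ± 0.06, edgeR adjusted p = 6.10e-08). The guide 1 libraries were the low ones in both genes, and the guide 2 libraries overlapped the control. DLGAP5, a spindle protein, and CDC25C, the phosphatase that starts mitosis, differed by 0.7 ± 0.07 and 0.62 ± 0.11.

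Of 32 DNA replication and G1/S genes, 28 were higher and 1 lower with guide 2 (background 17.4% and 17.1%), with a median of 0.40. GINS2 and CDC45, parts of the replicative helicase, differed by 0.77 ± 0.08 and 0.65 ± 0.05. MCM6, a subunit of the helicase ring, was at 116, 122 and 116 CPM with the non-target guide, 77.9, 75 and 70.4 with guide 1 and 117, 116 and 115 with guide 2 (0.64 ± 0.05, edgeR adjusted p = 5.63e-08), and MCM5 differed by 0.67 ± 0.06. E2F1, a member of the E2F factors, was at 45.1, 44.6 and 45.4 CPM with guide 1, 57.8, 59.6 and 65.8 with guide 2 and 63.9, 61.7 and 62.7 in the control (0.44 ± 0.06, edgeR adjusted p = 1.31e-05). Nucleotide synthesis followed, with 21 of 25 genes higher and 0 lower (median 0.28, same background). RRM2, the regulated subunit of ribonucleotide reductase, was at 122, 116 and 114 CPM with the non-target guide, 65.2, 68.8 and 68.9 with guide 1 and 114, 119 and 109.9 with guide 2 (0.76 ± 0.05, edgeR adjusted p = 9.08e-09). RRM1 and TYMS, thymidylate synthase, differed by 0.57 ± 0.04 and 0.63 ± 0.05.

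Against the non-target guide, guide 1 had 21 mitosis genes lower and 1 higher (median -0.30), and 27 replication genes lower and 2 higher (median -0.47). For nucleotide genes 17 were lower and 1 higher. The background for guide 1 was 20.3% lower and 21.4% higher. Guide 2 had 11 mitosis genes higher and 0 lower (median 0.16, background 14.1% higher), with 28, 26 and 23 of the 28 genes above the control mean in replicates 1, 2 and 3. It had 3 replication genes higher and 6 lower (median 0.0023, background 14.1% and 11.3%), and 6 nucleotide genes higher and 1 lower.

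The inhibitors of cyclin-dependent kinases moved as single genes. CDKN2B, which blocks CDK4 and CDK6, was at 30.6, 31.2 and 30.7 CPM with the non-target guide, 75.3, 72.4 and 73.3 with guide 1 and 29.2, 29.7 and 30.9 with guide 2 (-1.3 ± 0.05, edgeR adjusted p = 1.34e-11). Guide 1 was more than 2-fold above both other arms, which overlapped. CDKN1A, an inhibitor of CDK2, was at 8.09, 8.73 and 8.88 CPM with the non-target guide, 20.1, 19.98 and 20.5 with guide 1 and 12.1, 13.3 and 12.6 with guide 2 (-0.67 ± 0.07, edgeR adjusted p = 1.93e-06), in the order control, guide 2, guide 1. CDKN1B differed by -0.19 ± 0.05 (edgeR adjusted p = 0.00924), and its call was lost without guide 1 replicate 3, where the log2 fold change was -0.15. Of the 8 genes, 3 were lower and 2 higher (background 17.1% and 17.4%). The higher ones were CDKN3, a phosphatase that acts on CDK2, at 0.66 ± 0.09, and CDKN2C, at most at 1.15 CPM. The call of CDKN2C was the weaker one, and leaving out any single library left 1 gene higher.

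**Figure D4:**
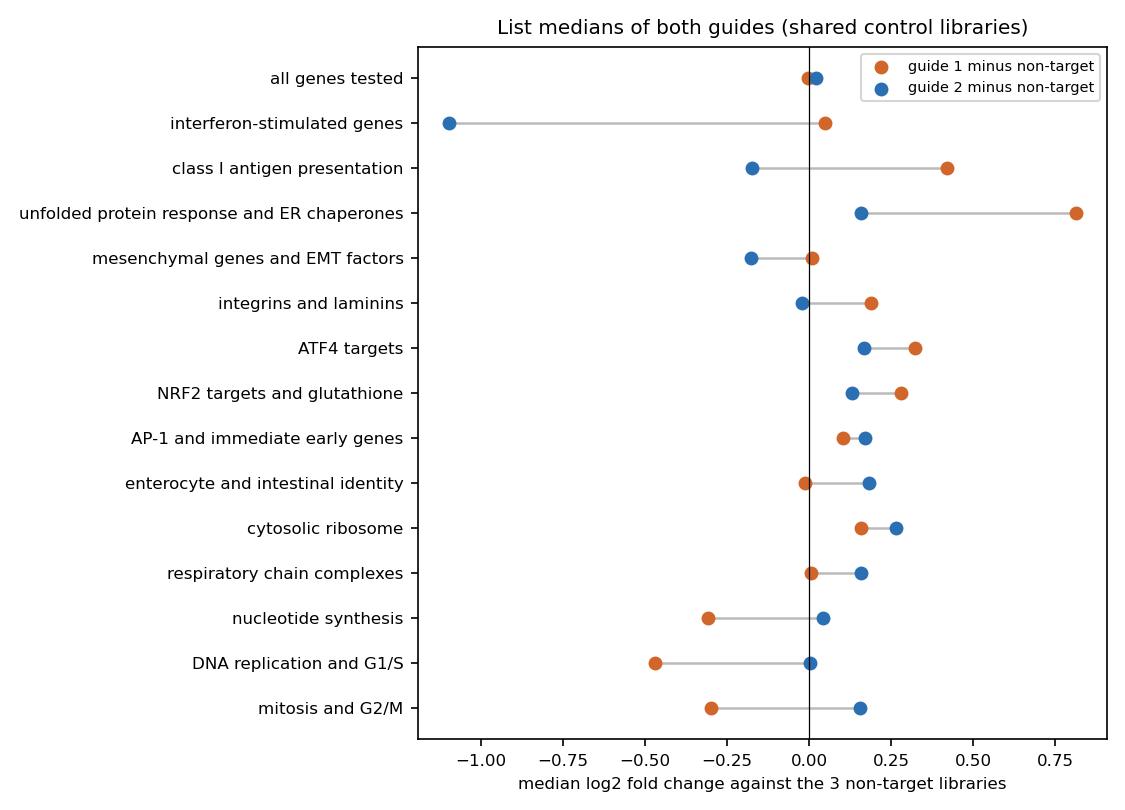
Median log2 fold change of guide 1 (orange) and guide 2 (blue) against the shared non-target libraries (horizontal) for the same 14 lists. Interferon-stimulated genes were at 0.05 with guide 1 and -1.10 with guide 2, the unfolded protein response at 0.81 and 0.16, and DNA replication genes at -0.47 and 0.0023.

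Markers of intestinal cell types went in both directions. Of 23 tested enterocyte and intestinal identity genes, 10 were higher and 6 lower with guide 2 (median 0.26, background 17.4% and 17.1%). KRT20, a keratin of differentiated colonocytes, was at 269, 266 and 256 CPM with the non-target guide, 641, 700.1 and 682 with guide 1 and 342, 365 and 341 with guide 2 (-0.95 ± 0.05, edgeR adjusted p = 3.59e-10). KLF4, a factor of differentiated epithelium, was at 30.05, 30.3 and 32.7 CPM with the non-target guide, 74.5, 77.6 and 80.7 with guide 1 and 40.9, 37.8 and 44.4 with guide 2 (-0.92 ± 0.06, edgeR adjusted p = 1.04e-08). CEACAM5, the carcinoembryonic antigen and one of a family of close relatives, differed by -0.76 ± 0.06. VIL1, the microvillus protein villin, went the other way, at 46.5, 45.2 and 41.8 CPM with guide 1, 75.8, 69.97 and 77.3 with guide 2 and 66.5, 68.5 and 70.6 in the control (0.74 ± 0.06, edgeR adjusted p = 4.67e-08), as did PHGR1, a small gut epithelial gene, at 0.84 ± 0.14. Of 12 tested colorectal epithelium markers, 4 were higher and 4 lower (same background). Without guide 1 replicate 2 the number higher was 2.

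Of 22 tested goblet and Paneth genes, 5 were higher and 7 lower (background 17.4% and 17.1%). AGR2, a disulfide isomerase needed for mucin folding, was at 250, 247 and 238 CPM with the non-target guide, 908, 1027 and 994 with guide 1 and 362, 400.2 and 377 with guide 2 (-1.36 ± 0.06, edgeR adjusted p = 1.38e-11). MUC5AC, a gel-forming mucin with related mucin genes nearby, was at 1251, 1300 and 1402 CPM with the non-target guide, 3334, 2672 and 2618 with guide 1 and 1526, 1094 and 1124 with guide 2 (-1.2 ± 0.15, edgeR adjusted p = 5.10e-04). Guide 1 stood above both other arms in these 2 abundant genes. At low level, MUC4 differed by -1.3 ± 0.21 and CLCA4 by 1.2 ± 0.25.

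Of 24 tested stem cell and Wnt target genes, 11 were higher and 9 lower (background 17.4% and 17.1%), with a median of -0.0024. CD44, a hyaluronan receptor and Wnt target, was at 144, 144 and 145 CPM with the non-target guide, 83.9, 86.3 and 81.2 with guide 1 and 228, 236 and 209 with guide 2 (1.42 ± 0.05, edgeR adjusted p = 4.57e-12). DKK1, a secreted Wnt inhibitor, was at 14.5, 13.6 and 13.9 CPM with the non-target guide, 11, 11.2 and 11.8 with guide 1 and 27.3, 28.2 and 26.8 with guide 2 (1.28 ± 0.07, edgeR adjusted p = 3.59e-10). For CD44 guide 1 lay below and guide 2 above the control. The control overlapped neither guide arm, while naming CD44 as a large rise required that the guide arms do not overlap. SMOC2, a matricellular stem cell gene, was at 3.2, 4.05 and 3.13 CPM with the non-target guide, 13.4, 13.2 and 12.2 with guide 1 and 4.9, 5.13 and 4.23 with guide 2 (-1.45 ± 0.11, edgeR adjusted p = 3.15e-08). NKD1, a feedback inhibitor of Wnt, was at 87.4, 84.4 and 86.6 CPM with the non-target guide, 41.4, 31.4 and 32.1 with guide 1 and 26.2, 19.2 and 18.2 with guide 2 (-0.72 ± 0.15, edgeR adjusted p = 0.00579). NKD1 was below the control in both guide arms and lowest with guide 2. Against the control, 14 genes of the list were lower with guide 1 (background 20.3%) and 14 with guide 2 (background 11.3%).

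Genes that report on growth factor signalling were split as well. Of 22 MAPK feedback and ETS genes, 9 were lower and 4 higher with guide 2 (background 17.1% and 17.4%). DUSP4 and DUSP5, phosphatases that switch off ERK, differed by -1.02 ± 0.04 and -0.81 ± 0.07, with DUSP4 at 112, 110.3 and 113 CPM with the non-target guide, 196, 194 and 200 with guide 1 and 99.3, 96.4 and 96.1 with guide 2. PHLDA1, an ERK-induced gene, differed by -0.65 ± 0.05. EGR1, an immediate early factor, went up, at 177, 184 and 181 CPM with the non-target guide, 103, 104 and 105 with guide 1 and 246, 241 and 249.9 with guide 2 (1.24 ± 0.04, edgeR adjusted p = 3.65e-12). Of 25 AP-1 and immediate early genes, 9 were higher and 8 lower (background 17.4% and 17.1%). BTG2, an antiproliferative gene, differed by 0.72 ± 0.06, MAFF by -0.66 ± 0.06 and KLF6 by -0.64 ± 0.05.

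Of 12 tested EGF family genes, 5 were lower and 3 higher (background 17.1% and 17.4%). The ligands EREG and TGFA differed by -0.6 ± 0.06 and -0.51 ± 0.05. ERRFI1, an intracellular inhibitor of the EGF receptor, differed by -0.49 ± 0.05 and LRIG1, a membrane inhibitor, by 0.42 ± 0.09. Without guide 1 replicate 2, and likewise without replicate 3, the number higher was 1. Of 29 tested BMP and TGF-beta genes, 10 were lower and 5 higher (same background). SMAD3, the factor activated by TGF-beta receptors, was at 262, 264 and 254 CPM with the non-target guide, 475, 451 and 461 with guide 1 and 266, 253 and 246 with guide 2 (-0.86 ± 0.05, edgeR adjusted p = 5.14e-10). ID2, a BMP target, differed by 0.53 ± 0.06.

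Cell adhesion genes changed in both directions. Of 20 tested integrin and laminin genes, 10 were lower and 3 higher (median -0.25, background 17.1% and 17.4%). LAMB3, a laminin chain of the epithelial basement membrane, was at 146, 137 and 157 CPM with the non-target guide, 311, 302 and 312 with guide 1 and 176, 170.2 and 196 with guide 2 (-0.77 ± 0.06, edgeR adjusted p = 3.79e-08), and LAMA3, another laminin chain, differed by -0.77 ± 0.06. In LAMB3 guide 1 was highest, and the 3 arms did not overlap. ITGAV, an integrin chain, differed by -0.56 ± 0.08.

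Of 36 tested junction genes, 14 were lower and 5 higher (background 17.1% and 17.4%). Scaling by library totals turned this into 9 lower and 8 higher. CLDN2, a claudin that forms a leaky cation pore, was at 9.67, 10.1 and 9.47 CPM with the non-target guide, 2.65, 3.43 and 2.73 with guide 1 and 13, 13.1 and 14.1 with guide 2 (2.17 ± 0.10, edgeR adjusted p = 1.06e-10), the largest rise by the naming rule. The gap junction gene GJB1 rose by 0.65 ± 0.07; PKP1, a desmosome gene, was at low level (0.94 ± 0.20). Of 13 tested keratins, 7 were lower and 5 higher (same background). KRT7 and KRT80 differed by -1.22 ± 0.10 and -1.11 ± 0.05, and keratins have close relatives. The number of keratins higher was 3 without guide 1 replicate 1, 2 or 3 or without guide 2 replicate 2, each left out alone.

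Of 16 tested mesenchymal genes, 9 were lower and 0 higher (median -0.44, background 17.1% and 17.4%), with 1 higher without guide 2 replicate 3. AXL, a receptor tyrosine kinase, was at 3.9, 4.17 and 5.22 CPM with the non-target guide, 6.74, 7.04 and 7.29 with guide 1 and 1.65, 2.63 and 2.13 with guide 2 (-1.72 ± 0.15, edgeR adjusted p = 2.25e-07). TNC, a matrix glycoprotein, differed by -0.9 ± 0.10 and CAV1, the coat protein of caveolae, by -0.73 ± 0.08. The summed level of the 27 genes listed was 416 to 423 CPM with guide 1, 308 to 325 with guide 2 and 312 to 328 in the control. Most of it came from a few members such as NT5E, a surface nucleotidase, at 168 to 176 CPM with guide 1 and 111 to 124 with guide 2. VIM, the mesenchymal intermediate filament, was at most at 0.348 CPM.

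**Figure D5:**
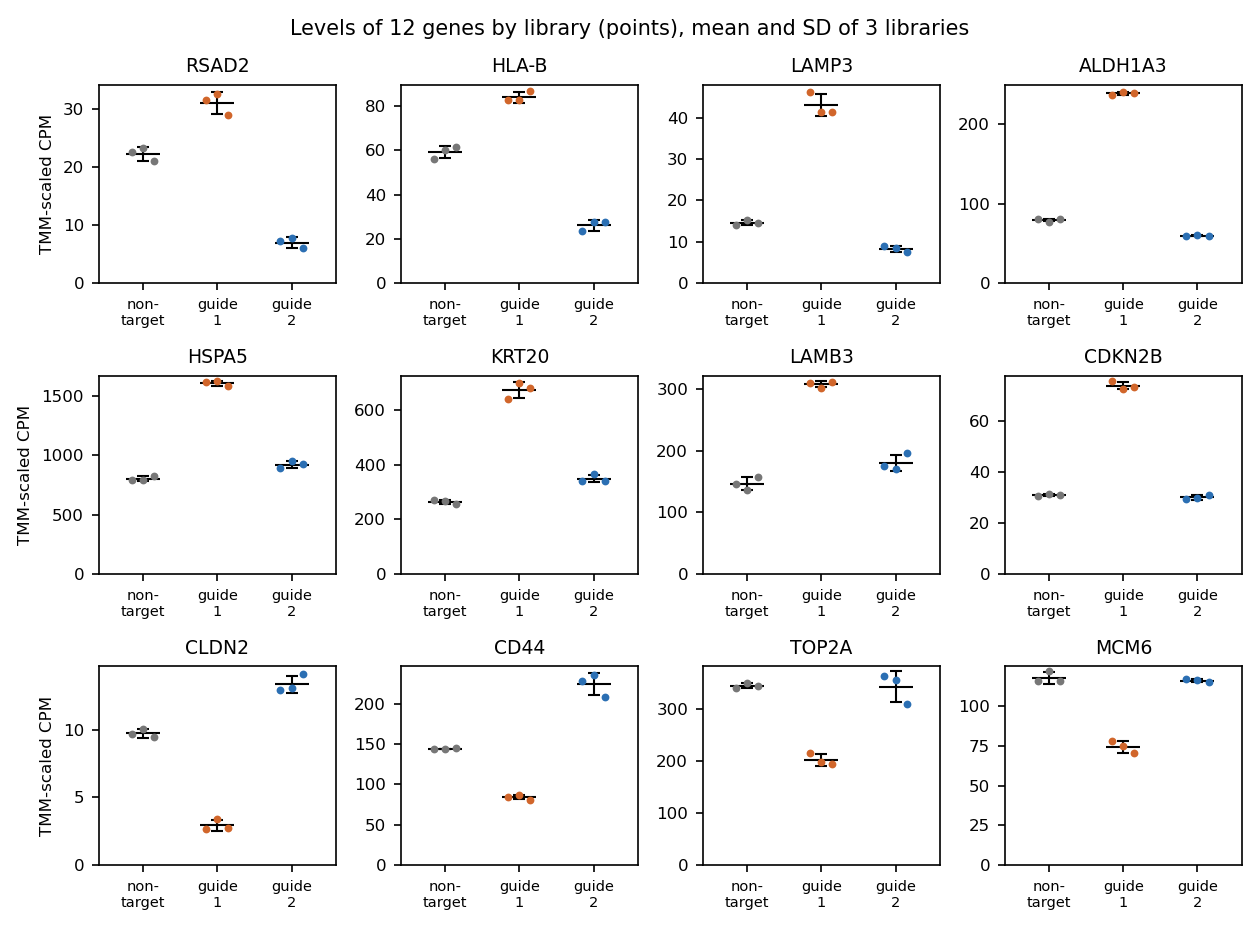
Levels of 12 genes in TMM-scaled CPM (vertical, from 0) in the 3 arms; points are libraries, bars the mean and SD of 3. RSAD2 and HLA-B were lowest with guide 2, HSPA5, KRT20, LAMB3 and CDKN2B were highest with guide 1, and TOP2A and MCM6 were lowest with guide 1.

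Among metabolic genes, those of retinoid metabolism held large single changes. ALDH1A3, which makes retinoic acid, was at 80.5, 77.4 and 80.5 CPM with the non-target guide, 237, 240.5 and 239.9 with guide 1 and 59.4, 60.2 and 58.7 with guide 2 (-2.01 ± 0.05, edgeR adjusted p = 2.34e-14), a 4.02-fold difference. ALDH1A1, an enzyme of the same reaction, was at 378, 375 and 360.4 CPM with the non-target guide, 184, 198 and 196 with guide 1 and 409, 441 and 415 with guide 2 (1.13 ± 0.05, edgeR adjusted p = 2.95e-11), the opposite direction. DHRS9 and RDH10, retinol dehydrogenases, differed by -1.44 ± 0.07 and -0.93 ± 0.05. Of 20 tested genes of the list, 7 were lower and 2 higher (background 17.1% and 17.4%). The number higher was 1 without guide 1 replicate 1 or 2, or without guide 2 replicate 3.

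Of 29 tested glycolysis and hypoxia genes, 9 were lower and 7 higher (background 17.1% and 17.4%). VEGFA, the angiogenic factor, was at 363, 356 and 365 CPM with the non-target guide, 613, 598 and 604 with guide 1 and 387, 385 and 383 with guide 2 (-0.65 ± 0.04, edgeR adjusted p = 6.06e-09), and ADM differed by -0.72 ± 0.14. CA9, a hypoxia-induced carbonic anhydrase, was at 39.6, 37.2 and 40.1 CPM with the non-target guide, 24.7, 24.6 and 26.7 with guide 1 and 39.8, 43.7 and 47.1 with guide 2 (0.78 ± 0.07, edgeR adjusted p = 1.79e-07), and ALDOC differed by 0.55 ± 0.12. VEGFA, ADM and CA9 are all hypoxia-inducible, and they did not share a direction. In the insulin-like growth factor system, 4 genes were lower and 3 higher of 11 tested (same background). IGFBP2, a binding protein, was at 15.1, 14.8 and 16.7 CPM with the non-target guide, 2.99, 3.04 and 3.25 with guide 1 and 6.72, 5.92 and 7.72 with guide 2 (1.13 ± 0.11, edgeR adjusted p = 8.99e-07). The ligand IGF2 differed by 0.68 ± 0.05, the adaptor IRS2 by -0.7 ± 0.08 and IGFBP6 by -0.59 ± 0.07. The number lower was 2 without guide 1 replicate 1 or without guide 2 replicate 2 or 3.

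Of 35 tested apoptosis regulators, 10 were lower and 5 higher (background 17.1% and 17.4%). BMF, a BH3-only activator of apoptosis, was at 88.4, 90.8 and 92.5 CPM with the non-target guide, 172, 164 and 161 with guide 1 and 73.5, 75.5 and 71.5 with guide 2 (-1.17 ± 0.05, edgeR adjusted p = 1.83e-11). The other named member, BIRC3, an inhibitor, was described above and was lower too.

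Genes of respiration and translation differed by little. Of 39 respiratory chain genes, 17 were higher with guide 2 and 0 lower (median 0.17, background 17.4% and 17.1%). NDUFV1, a complex I subunit, was at 0.41 ± 0.07. Of 40 mitochondrial ribosome genes, 17 were higher and 0 lower (median 0.13, same background). Without guide 1 replicate 1 the number was 10 in each list. The median of the respiratory chain genes in that library was -0.17 relative to the control, against 0.05 and 0.08 in the other 2 guide 1 libraries. Of 52 cytosolic ribosome genes, 9 were higher and 0 lower (median 0.12), a share near the 17.4% of all genes. RPL3 differed by 0.31 ± 0.06. The number higher was 4 without guide 1 replicate 1 and 15 without guide 2 replicate 1, and 1 gene was lower without guide 2 replicate 3. Of 31 proteasome subunits, 4 were higher and 1 lower, so 16.1% passed against 34.4% of all genes. When a library was left out, 1 to 7 were higher and 0 to 4 lower. Of 26 tested HOX genes, 10 were higher and 0 lower (background 17.4% and 17.1%), with HOXC4 at 0.7 ± 0.08. Without guide 1 replicate 1 the number higher was 6.

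Some genes with the largest differences were not members of the lists described above. Whether they belong to the same programmes was not tested. LAMP3, a lysosomal membrane protein at chr3:183122213-183163839, was at 14.1, 15.2 and 14.6 CPM with the non-target guide, 46.2, 41.6 and 41.5 with guide 1 and 8.88, 8.58 and 7.46 with guide 2 (-2.37 ± 0.08, edgeR adjusted p = 1.54e-12), the largest fall by the naming rule. AKAP12, a scaffold for protein kinase A at chr6:151239999-151358557, was at 104, 104 and 101 CPM with the non-target guide, 286, 261 and 250.4 with guide 1 and 78.3, 71.1 and 65.6 with guide 2 (-1.89 ± 0.06, edgeR adjusted p = 2.36e-12). NRP1, a coreceptor for semaphorins and VEGF at chr10:33177492-33336262, was at 70.4, 69.3 and 70.9 CPM with the non-target guide, 185, 175 and 173 with guide 1 and 55.4, 51.9 and 51.2 with guide 2 (-1.75 ± 0.05, edgeR adjusted p = 6.40e-13). All 3 were highest with guide 1 and lower with guide 2 than in the control. The control overlapped neither guide arm, while the naming rule itself required that the guide arms do not overlap. MMP13, a collagenase, had the same order at low level, from 8.41 ± 0.24 (SD, n = 3) with guide 1 to 1.85 ± 0.424 with guide 2, a log2 fold change of -2.19 ± 0.15.

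Among the rises, CXCR4, the receptor of the chemokine CXCL12 at chr2:136114349-136118165, was at 61.2, 59.8 and 60.6 CPM with the non-target guide, 20.2, 19.98 and 20.5 with guide 1 and 54.8, 59 and 59.9 with guide 2 (1.52 ± 0.06, edgeR adjusted p = 4.57e-12). NOX1, the superoxide-producing oxidase of colon epithelium, was at 21.6, 25.1 and 23.3 CPM with the non-target guide, 12.7, 12.3 and 12 with guide 1 and 37.2, 37.2 and 35.5 with guide 2 (1.57 ± 0.07, edgeR adjusted p = 2.95e-11). CFTR, the chloride channel of secretory epithelia at chr7:117465784-117715971, was at 124, 128 and 126 CPM with the non-target guide, 64, 58.1 and 60.4 with guide 1 and 168, 154 and 137 with guide 2 (1.33 ± 0.07, edgeR adjusted p = 1.50e-10). CXCR4 was low with guide 1 alone, and the other arms overlapped, while NOX1 and CFTR had guide 1 below and guide 2 above the control. The membrane dipeptidase gene DPEP1 and the adrenergic receptor gene ADRA2A differed by 1.5 ± 0.10 and 1.38 ± 0.12. PPP1R1B, an inhibitor of protein phosphatase 1, differed by 1.31 ± 0.08, and the organic anion transporter gene SLCO1B3 by 1.68 ± 0.16. NDRG2 (1.72 ± 0.14), PTPRO, a receptor phosphatase (1.27 ± 0.10), AIFM3 (1.25 ± 0.10) and IQGAP2, a scaffold protein (1.22 ± 0.10), complete the 15 largest rises.

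A further 13 gene lists were computed and not described singly. They held 255 tested genes, of which 62 were higher and 55 lower with guide 2 (background 17.4% and 17.1%). Their medians ran from -0.28 to 0.40.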

How the data were processed

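RNA of 9 WiDr guide libraries was analysed, 3 per arm. The authors deposited RSEM expected counts per gene; the submitters' processing notes list Bowtie2 2.1.0, RSEM 1.2.15 and the build hg38. The annotation and the strand setting were not given in the sources used here. Expected counts were rounded and filtered with filterByExpr. They were fitted with edgeR 4.0.16 in R 4.3.3 (TMM, robust quasi-likelihood), using all 9 libraries for a shared estimate of spread and no covariate. P-values were Benjamini-Hochberg adjusted over 14649 of 26475 genes. SE is the log2 fold change divided by the square root of F. Of the tested symbols, 13720 (93.7%) matched GENCODE 29 for coordinates. The fit was tested on simulated data. Alternatives used DESeq2 1.42.0 and limma 3.58.1, other scalings, filters and library sets.

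Named genes are the 15 largest rises and 15 largest falls with a mean of at least 5 CPM and arms that do not overlap. Per list, up to 4 passing members with the largest change and at least 1 CPM were added, with members of a pathway role. Defining markers are named to check cell identity. CDKN2C and ZEB1, both under that mean, and NT5E were named after their values were seen. The comparison and the 49 gene lists were chosen with earlier results of these data known. The gene addressed by the guides and some other genes are not reported here. Replicates differed by more than sampling noise (chi-square per degree of freedom 3.5 to 88.4), so none was merged.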

Additional observations from a re-analysis of the deposited data

How the results depend on the processing

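The number of genes that differed was 5040. It was 4815 with DESeq2, 5112 with limma-voom, 5045 with RLE scaling, 4785 with library totals only, 4973 without a filter on low counts and 4358 with the 6 guide libraries alone. Leaving out 1 library gave 4000 to 5188. One fit of all 36 libraries gave 2802 genes, 1354 higher and 1448 lower; the cause was not tested. With a filter at a mean CPM of 1, 210 genes differed by over 2-fold instead of 380, and fewer genes were tested. By its arrangement of 1 library titled guide 1 against 5, grouping by the genotype field gave 0 genes in total, 0 higher, 0 lower and 0 over 2-fold.

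The replicate number as a block gave 5753 genes, 2872 higher and 2881 lower. The main fit did not take the numbers as pairs, and whether equal numbers stand for a shared batch was not tested. Residuals of same-numbered guide 1 and guide 2 libraries correlated at 0.123, 0.121 and 0.068. Each of these libraries correlated best with its own number in the other guide arm, a hint from the data and not from the design. Same-numbered guide 2 and control libraries correlated at 0.106, 0.0657 and 0.126. For guide 1 and the control the values were -0.0549, 0.0231 and -0.0363.

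Of the 124 genes whose fold change is printed, 120 lost no call in 19 alternatives, the genotype field apart, and 0 reversed. Most of them were named for large passing changes in these same libraries, so this does not speak for all genes. Over all genes, the fit of 36 libraries shared 2738 calls of the same direction with the 5040 of the main fit. CDKN1B lost its call with library totals only (-0.14) and without guide 1 replicate 3 (-0.15). MUC4 (-1.30), RPL3 (0.30) and LYZ (0.47) lost theirs in the fit of 36 libraries. In that fit nucleotide synthesis had 13 genes higher, respiratory chain 5, mitochondrial ribosome 3 and cytosolic ribosome 0. Over all lists there were 98 counts of members higher or lower. Of these, 38 moved by more than 1.5 times, or to or from 0, in the fit of 36 libraries. By the same measure 17 moved without guide 1 replicate 1 and 14 without guide 1 replicate 2. The counts of the interferon, class I, unfolded protein response and mitosis lists stayed within 1.5 times in the same 19 alternatives. Without ribosomal RNA genes their own list has no median.

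Grouped by the genotype field, the log2 fold changes had the opposite sign, since all libraries titled guide 2 then stand in the other arm: CLDN2 -1.76, NDRG2 -1.30, SLCO1B3 -1.30, NOX1 -1.16, CXCR4 -1.06, DPEP1 -1.05, CD44 -1.05, ADRA2A -0.89, CFTR -0.94, PPP1R1B -0.95, DKK1 -0.83, PTPRO -0.99, AIFM3 -1.02, EGR1 -0.85, IQGAP2 -1.06, LAMP3 0.88, MMP13 0.89, RSAD2 0.76, IFI44L 0.93, ALDH1A3 0.87, SAMD9L 0.62, IFI16 0.91, AKAP12 0.71, XAF1 0.73, NLRC5 0.85, MX2 0.80, IFI27 0.94, NRP1 0.73, IFI6 0.98, HLA-B 0.83, STAT2 0.19, IRF9 0.43, IRF7 0.49, IFIH1 0.54, DDX58 0.47, ISG15 0.71, USP18 0.56, IFIT1 0.53, OAS1 0.65, PSMB9 1.06, TAP1 0.67, B2M 0.28, HLA-C 0.63, IL32 0.53, BIRC3 0.45, KIF20A -0.39, TOP2A -0.57, DLGAP5 -0.48, CDC25C -0.44, GINS2 -0.40, MCM5 -0.40, CDC45 -0.35, MCM6 -0.51, E2F1 -0.27, RRM2 -0.47, TYMS -0.38, RRM1 -0.34, CDKN2B 0.62, CDKN1A 0.39, CDKN1B 0.18, CDKN3 -0.48, DNAJB9 0.46, HSPA5 0.40, DNAJC3 0.37, HYOU1 0.39, XBP1 0.049, DDIT3 0.33, NUPR1 -0.43, SLC38A2 0.25, VLDLR 0.22, SLC3A2 0.31, AKR1C1 0.36, AKR1C2 0.33, TXNRD1 0.29, OSGIN1 0.31, KRT20 0.51, KLF4 0.55, PHGR1 -0.37, CEACAM5 0.42, AGR2 0.69, MUC4 0.48, MUC5AC 0.43, CLCA4 -1.41, SMOC2 0.58, NKD1 0.24, DUSP4 0.55, DUSP5 0.37, PHLDA1 0.43, BTG2 -0.43, MAFF 0.42, KLF6 0.35, EREG 0.30, TGFA 0.21, ERRFI1 0.29, LRIG1 -0.28, SMAD3 0.45, ID2 -0.32, PKP1 -0.61, GJB1 -0.43, KRT7 0.64, KRT80 0.55, AXL 0.85, TNC 0.36, CAV1 0.43, LAMA3 0.36, LAMB3 0.43, ITGAV 0.20, DHRS9 0.74, ALDH1A1 -0.75, RDH10 0.52, BMF 0.53, CA9 -0.43, ADM 0.49, VEGFA 0.35, ALDOC -0.29, IGFBP2 -0.70, IRS2 0.30, IGF2 -0.47, IGFBP6 0.44, NDUFV1 -0.19, HOXC4 -0.33, RPL3 -0.15, VIL1 -0.59, LYZ -0.26.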
